A study of Pyrus betulifolia with 6 samples.

Results

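The wall-sensing genes described here are 97 of the 37815 genes listed for root tips of Pyrus betulaefolia, a wild pear used as a rootstock. They were chosen by the protein descriptions deposited with the expression values, and they form 3 classes. There are 39 wall-associated kinases, 39 FERONIA-type kinases (described as FERONIA, THESEUS, HERK or ANXUR) and 19 RALF (rapid alkalinization factor) peptides. The rule of choice used no expression value, though it was set with earlier results of these data known. Root tips of wild-type plants were collected 24 h after transfer to nutrient solution with 0 mM B (B deficiency, or B-deficient tips) or with 0.045 mM B (control), and 3 RNA-seq libraries were made per group. The labels call these libraries biological replicates without saying which plants were pooled, so the p-values below measure the spread between these libraries.

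Wall-associated kinases span the plasma membrane and bind pectin with their outer part, as shown in Arabidopsis. FERONIA-type kinases carry a malectin-like outer domain, bind RALF peptides together with small GPI-anchored proteins of the LORELEI family, and take part in sensing the state of the wall during growth. RALF peptides are secreted signals that raise the pH of the wall space and also bind pectin and leucine-rich repeat extensins. Boron enters this system as the cross-link between chains of rhamnogalacturonan II, a pectin, and a lack of boron leaves that pectin without its bridge.

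Expression is given in FPKM, which counts the fragments of a gene corrected for its length and for library depth, so levels can be compared between genes. Differences were tested with limma on log2(FPKM + 0.1) over the 28129 genes whose mean over the 6 libraries reached 0.5 FPKM. A gene was called where its log2 fold change was at least 1 in either direction with an adjusted p under 0.05 (Benjamini-Hochberg over all genes tested). By this rule 8.19% of all genes tested were called, 4.37% as higher and 3.83% as lower in B deficiency, and the median log2 fold change was -0.05. The added 0.1 makes folds of weakly expressed genes look smaller than they are. Many pear genes have close copies among which the authors' counting shared reads by an estimate, which leaves the value of any 1 copy uncertain.

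The libraries summed to between 951246 and 971102 FPKM. B deficiency library 2 stood apart, with correlations of 0.959 and 0.962 with the other B deficiency libraries, against 0.976 between those and 0.975 to 0.976 between control libraries (Pearson, across the genes tested on the log2 scale). It had the highest value of the 3 B deficiency libraries in 39.2% of all genes tested, but in 18 of the 26 FERONIA-type kinases tested (69.2%), in 9 of 21 wall-associated kinases (42.9%) and in 5 of 14 RALF peptides (35.7%). Of 16 root tip marker genes, 14 averaged at least 1 FPKM and 1 was listed at 0 in every library. The list summed to between 104.3 and 113.1 FPKM per library in B deficiency and between 126.8 and 131.5 FPKM in control tips. Among them, the 4 genes for the root cap factors SOMBRERO and BEARSKIN were a subset picked after their values were seen. They summed to between 18.0 and 24.6 FPKM in B-deficient tips and between 34.1 and 35.6 FPKM in control tips. Among the other root tip markers, LOC103945756 (SHORT-ROOT-like) and LOC108868095 (AIL5) were also lower. Their log2 fold changes were -0.35 and -0.58 (limma adjusted p = 0.0186 and 0.0119). Not all root tip markers went this way. LOC103954164 (AIL6) was higher without overlap (log2 fold change 0.50, limma adjusted p = 0.0508), and the SCARECROW 2-like genes LOC103930265 and LOC103960214 had -0.08 and -0.06. Of the 15 root tip markers tested, 5 were lower and none higher at an adjusted p under 0.05, against 15.4% and 12% of all genes tested. Only 3 of those 5 were root cap factors. The part of the root cap in the values below was not tested, and in whole root tips fewer cells of a type and less RNA per cell cannot be told apart. Leaf markers, 32 genes for chlorophyll-binding and Rubisco proteins of which 4 were listed at 0, summed to between 578.9 and 639.3 FPKM in B-deficient tips and between 575.0 and 609.6 FPKM in control tips. A single Rubisco gene, LOC103928816, held most of this, and the other 31 genes summed to between 59.8 and 73.5 FPKM in B-deficient tips and between 71.1 and 78.9 FPKM in control tips. Of the 32 genes, only 11 were tested, and of these 1 was higher and 2 were lower at an adjusted p under 0.05 (limma). Over all genes tested, 12% were higher and 15.4% were lower at that adjusted p.

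Of the 97 genes, 61 passed the minimum mean level, 24 lay below it and 12 were listed at 0 in all 6 libraries. Among those tested, 12 were called and all 12 were higher in B deficiency, which is 19.7% of 61. Of all genes tested, 8.19% were called and 4.37% were called higher. The called members were 6 of 21 wall-associated kinases (28.6%), 4 of 26 FERONIA-type kinases (15.4%) and 2 of 14 RALF peptides (14.3%). Only 4 of the 12 have listed domains that name their class, namely 1 wall-associated kinase, 1 FERONIA-type kinase and 2 RALF peptides. No member was called lower by limma, while 10 had a negative difference at an unadjusted p under 0.05. Of all genes tested, 23.2% were lower and 16.3% higher at that p. Without the minimum fold change, 26 passed the adjusted p, where 27.3% of all genes tested did. Of these members 22 were higher and 4 were lower, where 12% of all genes tested were higher and 15.4% were lower. The groups did not overlap in 29 members that were higher and 10 that were lower in B deficiency, where 18.5% and 26.6% of all genes tested did so. The median log2 fold change was 0.53, and 0.46 without the 1 gene that was listed at 0 in the control. A gene can pass the minimum level through its high group alone, which 7 of the tested members did, and 3 of those were among the called. Of the 54 members with a mean of at least 0.5 FPKM in both groups, 9 were called (16.7%), against 6.32% of all genes that meet this condition. With log2(FPKM + 1) in place of log2(FPKM + 0.1), 9 members were called, all higher, where 5.55% of all genes tested were called and 3.19% were called higher. Leaving out 1 library at a time gave 9 to 11 called members, and 8 of the 12 calls were made in each of the 6 fits.

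**Figure D1:**
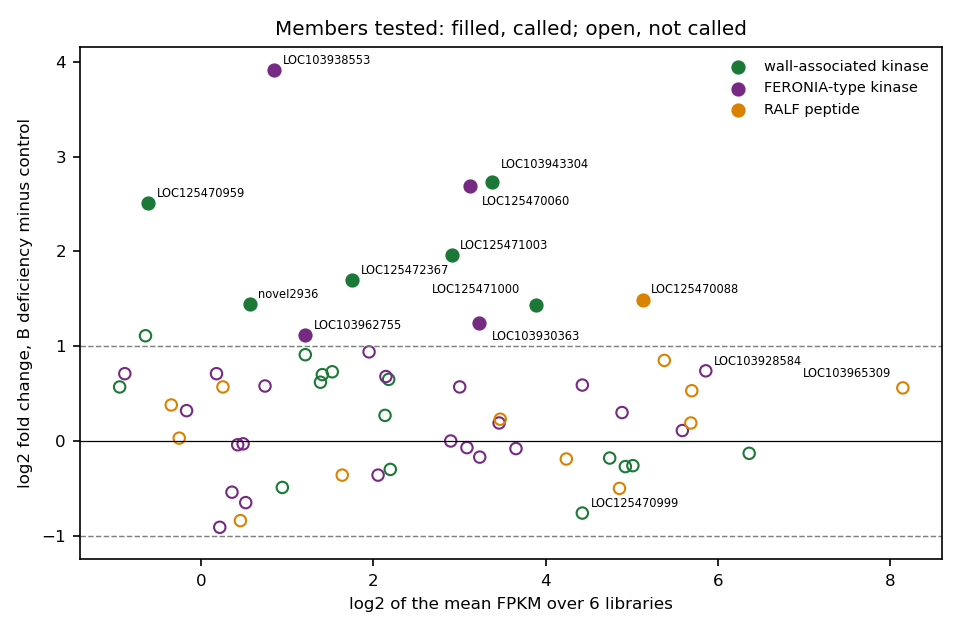
Log2 fold change (B deficiency minus control) against the log2 of the mean FPKM over 6 libraries for the wall-sensing genes tested, with filled points for called genes and dashed lines at the minimum fold change. The gene listed at 0 in the control is not drawn, the called genes all lie above the upper line, and the most expressed gene of each class lies between the lines.

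Added up within each library, the classes differed in how far they stood above the control. Wall-associated kinases summed to 262.8, 281.8 and 266.9 FPKM in B-deficient tips libraries 1 to 3, against 245.3, 245.2 and 261.4 FPKM in control libraries 1 to 3. FERONIA-type kinases summed to 275.1, 348.5 and 277.6 FPKM in B-deficient tips, against 224.9, 220.8 and 215.4 FPKM in control tips. RALF peptides summed to 624.4, 607.7 and 637.7 FPKM in B-deficient tips, against 442.1, 434.1 and 441.7 FPKM in control tips. In each class the groups did not overlap, with B deficiency higher, but for wall-associated kinases the gap was narrow, at 262.8 against 261.4 FPKM. Within that class, members with an outer domain and a kinase summed lower, to 181 FPKM in B-deficient and 197 FPKM in control tips. Members with a kinase alone summed higher, to 83.4 FPKM in B-deficient and 50.2 FPKM in control tips. The ratio of the means was 1.08 for wall-associated kinases, 1.36 for FERONIA-type kinases and 1.42 for RALF peptides. The most expressed gene held different shares of these sums. The RALF peptide gene LOC103965309 held 54.3% of its class in B deficiency and 52.1% in the control, and the rest of the class still averaged 285 ± 13.7 FPKM in B-deficient tips and 210 ± 7.33 FPKM in control tips (SD, n = 3 each). In the FERONIA-type class, LOC103928584 held 24.2% in B deficiency and 19.8% in the control, and the ratio of the rest was 1.29. Among wall-associated kinases, LOC103935831 held 29.1% in B deficiency and 34.4% in the control, and the ratio of the rest was 1.17.

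**Figure D2:**
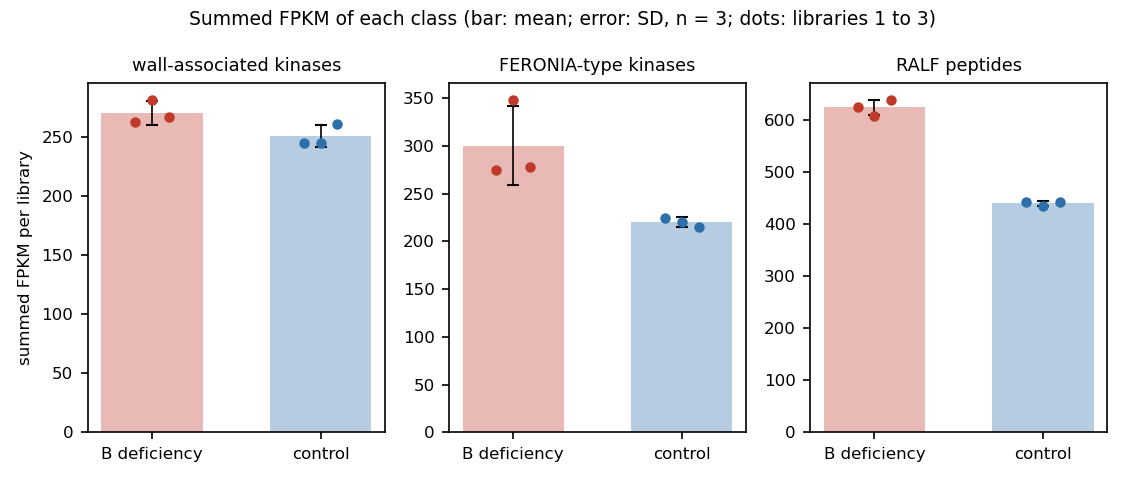
Summed FPKM of each class in each library, with a point per library, a bar from 0 to the mean of 3 and an error bar of 1 SD, B deficiency left of control. RALF peptides sum to between 607.7 and 637.7 FPKM in B-deficient tips and between 434.1 and 442.1 FPKM in control tips, and B deficiency library 2 lies above the other libraries in the FERONIA-type sum.

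Among the wall-associated kinases, LOC103943304 had the largest log2 fold change on the scale with 0.1 added, though not with 0.01 added, where the weakly expressed LOC125470959 exceeded it (3.86 against 2.77). LOC103943304 is described as wall-associated receptor kinase-like 16. It had 16.9, 19.7 and 17.9 FPKM in B-deficient tips and 2.96, 2.41 and 2.59 FPKM in control tips. The groups were far apart relative to their spread (log2 fold change 2.73, SE 0.113, limma adjusted p = 1.8e-05), and with each library left out the log2 fold change stayed between 2.67 and 2.81. Another gene of the same description, LOC125472367, had 5.21, 4.54 and 5.83 FPKM in B-deficient tips and 1.84, 1.21 and 1.59 FPKM in control tips (log2 fold change 1.70, SE 0.189, limma adjusted p = 0.000823). This was the one called wall-associated kinase whose deposited domains include both the wall-binding outer part and the kinase. The other 2 genes of this description that were tested, LOC103934943 and LOC125472393, also had positive differences. LOC103934943 averaged 5.54 FPKM in B-deficient tips and 3.50 FPKM in control tips and passed the adjusted p but not the minimum fold change (log2 fold change 0.65, limma adjusted p = 0.0129).

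The genes described as wall-associated receptor kinase-like 4 did not all differ in the same direction. In Arabidopsis a kinase of this name is known from responses to mineral nutrients in roots. In pear 6 loci carry the same closest database entry, and 5 of them were tested. LOC125471003 had 10.3, 13.3 and 12.2 FPKM in B-deficient tips and 2.60, 2.40 and 4.22 FPKM in control tips (log2 fold change 1.96, SE 0.217, limma adjusted p = 0.000793). LOC125471000 had 19.0, 29.9 and 16.4 FPKM in B-deficient tips and 8.94, 7.43 and 7 FPKM in control tips (log2 fold change 1.43, SE 0.218, limma adjusted p = 0.00316). Both rose, and neither overlapped between the groups. LOC125470959 had 1.96, 0.62 and 0.95 FPKM in B-deficient tips and 0.14, 0 and 0.25 FPKM in control tips (log2 fold change 2.51, SE 0.628, limma adjusted p = 0.0237). This gene passed the minimum level through B deficiency alone. It was called neither with 1 added (log2 fold change 0.90) nor with 0.01 added (3.86, adjusted p = 0.0605). Without B deficiency libraries 1 and 3 the adjusted p was 0.0775 and 0.0612 at log2 fold changes of 2.10 and 2.58, and without control libraries 1 and 2 it was 0.0576 and 0.0558 at 2.63 and 2.00.

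LOC125470999, in contrast, had 15.5, 14.9 and 17.2 FPKM in B-deficient tips and 22.3, 25.9 and 33.5 FPKM in control tips. Its groups did not overlap and it was lower at an adjusted p of 0.00869 (limma), but with a log2 fold change of -0.76 (SE 0.146) it missed the minimum. LOC125471002 averaged 4.84 ± 1.16 FPKM in B-deficient tips and 3.94 ± 0.537 FPKM in control tips (SD, n = 3 each), with a limma adjusted p of 0.361. LOC125471001 lay below the minimum level, at 0.18 FPKM or less in B deficiency and listed at 0 in the control. The sum over the 6 loci was 52.0, 62.5 and 52.7 FPKM in B-deficient tips and 38.3, 39.8 and 48.3 FPKM in control tips. What differed more than the sum was its division among the loci. LOC125470999 held 28.5% of the sum in B deficiency and 64.6% in the control, while LOC125471000 held 39.1% in B deficiency and 18.5% in the control and LOC125471003 held 21.4% in B deficiency and 7.29% in the control. Whether reads of these similar loci were divided correctly was not tested.

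**Figure D3:**
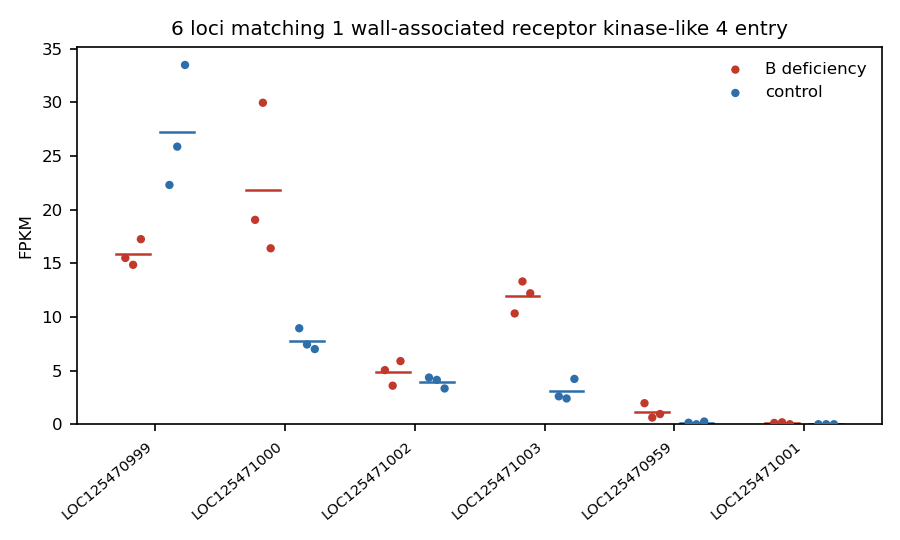
FPKM of the loci described as wall-associated receptor kinase-like 4, with a point per library, a line at the mean of 3 and B deficiency left of control. LOC125470999 lies lower in B deficiency, between 14.9 and 17.2 FPKM, than in the control, between 22.3 and 33.5 FPKM, whereas LOC125471000 and LOC125471003 lie higher in every B deficiency library.

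The last called gene of the class, novel2936, is a locus that the deposited table numbers itself, is described as wall-associated receptor kinase-like 1 and has no domain listed. It had 1.89, 3.15 and 1.59 FPKM in B-deficient tips and 0.57, 0.57 and 1.13 FPKM in control tips (log2 fold change 1.44, SE 0.356, limma adjusted p = 0.0229). Without B deficiency library 1 and without control libraries 1 and 2 the adjusted p was 0.0534, 0.0807 and 0.0805, at log2 fold changes of 1.51, 1.29 and 1.29. LOC103965499, described as wall-associated receptor kinase-like 8, averaged 0.917 FPKM in B-deficient tips and 0.360 FPKM in control tips and was not called (log2 fold change 1.11, limma adjusted p = 0.0562), but without B deficiency library 2 it was (1.36, adjusted p = 0.0171).

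The most expressed wall-associated kinases were not among the called. LOC103935831, described as wall-associated receptor kinase-like 20, had 78.0, 78.8 and 79.3 FPKM in B-deficient tips and 85.2, 85.8 and 87.4 FPKM in control tips (log2 fold change -0.13, limma adjusted p = 0.0656). The next in level are described as wall-associated receptor kinase-like 14. LOC103955461 had 28.3, 32.7 and 27.1 FPKM in B-deficient tips and 34.7, 35.3 and 35.7 FPKM in control tips (log2 fold change -0.26, limma adjusted p = 0.0442). LOC103967602 had 27.03, 27.84 and 28.02 FPKM in B-deficient tips and 33.04, 32.56 and 34.11 FPKM in control tips (log2 fold change -0.27, limma adjusted p = 0.0109). All 4 genes of this description were lower in every B deficiency library than in every control library. Their log2 fold changes were -0.18 to -0.30, and 2 of the 4 had a limma adjusted p under 0.05. For comparison, 26.6% of the 28129 genes in the test lay lower without overlap, and 15.4% passed the adjusted p as lower. The 25th percentile of the log2 fold change across those 28129 genes was -0.275, so falls of this size were common.

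**Figure D4:**
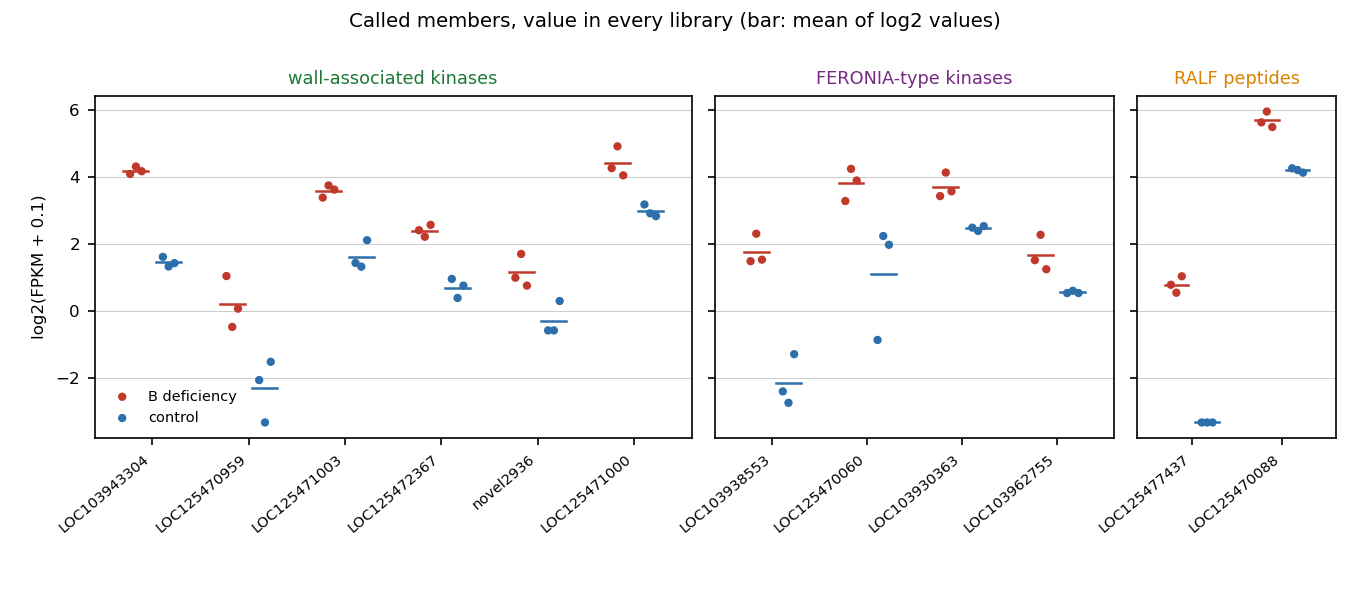
Log2(FPKM + 0.1) of the called wall-sensing genes, with a point per library, a bar at the mean of the 3 log2 values and B deficiency left of control for each gene. The groups of the called genes do not overlap, and the RALF gene LOC125470088 lies highest, between 44.7 and 61.6 FPKM in B-deficient tips and between 17.3 and 19.0 FPKM in control tips.

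Among the FERONIA-type kinases, the called genes were of low or middle level. LOC103938553, described as FERONIA and listed with a kinase domain alone, had 2.7, 4.84 and 2.79 FPKM in B-deficient tips and 0.09, 0.05 and 0.31 FPKM in control tips (log2 fold change 3.91, SE 0.452, limma adjusted p = 0.000953). It passed the minimum level through B deficiency alone, and its log2 fold change depends on the added value, with 1.92 when 1 was added and 4.74 when 0.01 was added, both called. LOC103930363 had 10.7, 17.4 and 11.8 FPKM in B-deficient tips and 5.5, 5.13 and 5.68 FPKM in control tips (log2 fold change 1.24, SE 0.178, limma adjusted p = 0.0025). Its description names ANXUR2, a kinase known from pollen tubes in Arabidopsis, while a second deposited annotation names a wall-associated kinase, and its listed domain is a kinase alone. Both of these genes were also called with any of the 6 libraries left out.

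The other 2 calls lay closer to the thresholds. LOC125470060, described as FERONIA, had 9.61, 18.8 and 14.7 FPKM in B-deficient tips and 0.45, 4.61 and 3.83 FPKM in control tips (log2 fold change 2.69, SE 0.769, limma adjusted p = 0.0386). Control library 1 was far below the other control libraries. Without B deficiency library 1, 2 or 3 or control library 3 the adjusted p was 0.0693, 0.0735, 0.0984 and 0.058, while the log2 fold change was 2.95, 2.47, 2.64 and 3.12. Without control library 1 the log2 fold change was 1.70, with an adjusted p of 0.0125. LOC103962755, with both the malectin-like domain and the kinase, had 2.76, 4.73 and 2.27 FPKM in B-deficient tips and 1.35, 1.42 and 1.35 FPKM in control tips (log2 fold change 1.12, SE 0.27, limma adjusted p = 0.0206). Without B deficiency library 2 its log2 fold change was 0.82, below the minimum, and without control library 1, 2 or 3 the adjusted p was 0.0692, 0.0635 or 0.0689 at log2 fold changes of 1.11, 1.14 and 1.11. In the class as a whole, 2 genes were called without B deficiency library 2 and 2 without control library 3. LOC125470062, which shares its closest database entry with LOC125470060, had 1.26, 0.59 and 0.55 FPKM in B-deficient tips and 1.10, 1.57 and 1.91 FPKM in control tips. Its difference was not called (log2 fold change -0.91, limma adjusted p = 0.108), but without B deficiency library 1 it was called lower (-1.25, adjusted p = 0.0369).

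Of the highly expressed FERONIA-type kinases, the one with the clearest difference was LOC103928584, described as HERK 1, which is known from cell elongation in Arabidopsis. It had 74.1, 73.3 and 70.6 FPKM in B-deficient tips and 46.0, 43.4 and 41.5 FPKM in control tips. The difference was large relative to the spread (log2 fold change 0.74, SE 0.0573, limma adjusted p = 0.000178), stayed between 0.70 and 0.77 with each library left out, and missed the minimum fold change. The other HERK 1 genes tested, LOC103945671 and LOC103948931, averaged 11.7 and 7.45 FPKM in B-deficient tips and 10.2 and 7.45 FPKM in control tips, with limma adjusted p of 0.315 and 0.982. The most expressed gene described as FERONIA, LOC103960197, had 46.0, 58.3 and 46.2 FPKM in B-deficient tips and 46.8, 46.4 and 45.1 FPKM in control tips, so that only library 2 lay above the control (log2 fold change 0.11, limma adjusted p = 0.434). The next, LOC103930225, had 28.5, 40.2 and 29.9 FPKM in B-deficient tips and 26.5, 26.8 and 26.0 FPKM in control tips (log2 fold change 0.30, limma adjusted p = 0.123). Library 2 was again the highest there.

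THESEUS 1 is the kinase through which Arabidopsis slows its growth when cellulose is short. Of the 3 pear genes of this description that were tested, 2 were higher and 1 was lower at an adjusted p under 0.05, all below the minimum fold change. Over all genes tested, 12% were higher and 15.4% lower at that adjusted p. LOC103934418 averaged 25.9 ± 4.92 FPKM in B-deficient tips and 17.0 ± 0.234 FPKM in control tips, and LOC103939348 averaged 9.62 ± 1.38 FPKM in B-deficient tips and 6.41 ± 0.33 FPKM in control tips (SD, n = 3 each), with limma adjusted p of 0.0125 and 0.012. LOC103948459 averaged 1.09 FPKM in B-deficient tips and 1.76 FPKM in control tips (log2 fold change -0.65, limma adjusted p = 0.0411). Of the 7 genes described as ANXUR, 2 were tested and 2 were listed at 0 in every library. Besides LOC103930363, the tested one was LOC103934968, which averaged 5.10 ± 0.148 FPKM in B-deficient tips and 2.61 ± 0.221 FPKM in control tips (SD, n = 3 each; log2 fold change 0.94, limma adjusted p = 0.0015).

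RALF peptide genes reached the highest levels of the 3 classes. The most expressed was LOC103965309, described as RALF-like 33, with 349, 307 and 360 FPKM in B-deficient tips and 240.0, 221 and 226 FPKM in control tips. In Arabidopsis RALF33 is a ligand of FERONIA. The gene was higher in every B deficiency library at an adjusted p of 0.00139 (limma) but missed the minimum fold change (log2 fold change 0.56, SE 0.0705). Of the 5 genes described as RALF-like 33, 4 were tested, all 4 with positive differences, and 3 had an adjusted p under 0.05. Of all genes tested, 12% were higher at that adjusted p. One of the 3, LOC125477437, was at 0 in the control and tested through its B deficiency values alone, so its direction was fixed by the filter. The gene not tested, LOC103943035, averaged 0.453 FPKM in B-deficient and 0.377 FPKM in control tips. LOC103934137 had 58.7, 44.2 and 57.9 FPKM in B-deficient tips and 25.4, 27.6 and 36.0 FPKM in control tips (log2 fold change 0.85, limma adjusted p = 0.00716), and it reached the minimum fold change only without control library 3 (1.00, adjusted p = 0.00697). LOC103943649 had 54.6, 63.1 and 47.4 FPKM in B-deficient tips and 49.7, 46.1 and 48.4 FPKM in control tips, groups that overlap (log2 fold change 0.19, limma adjusted p = 0.22).

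The called RALF peptide genes were LOC125470088 and LOC125477437. LOC125470088 had 49.2, 61.6 and 44.7 FPKM in B-deficient tips and 19.0, 18.3 and 17.3 FPKM in control tips (log2 fold change 1.49, SE 0.117, limma adjusted p = 0.00018). Its log2 fold change stayed between 1.36 and 1.59 with each library left out. LOC125477437, another RALF-like 33, had 1.62, 1.36 and 1.95 FPKM in B-deficient tips and was listed at 0 in all 3 control libraries (limma adjusted p = 0.000525), so no fold is given. It passed the minimum level through B deficiency alone, and the control value in its test is set by the added 0.1, so its p depends on that choice (0.000483 with 1 added and 0.00176 with 0.01).

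The remaining RALF peptides differed less. LOC103935744, described as RALF-like 32, had 56.6, 65.0 and 62.1 FPKM in B-deficient tips and 40.01, 48.65 and 38.76 FPKM in control tips (log2 fold change 0.53, limma adjusted p = 0.00738). RALF-like 34 is known in Arabidopsis as a ligand of THESEUS 1. Its 2 genes had negative differences that did not pass the test, with log2 fold changes of -0.36 in LOC103935135 and -0.84 in LOC103956869 (limma adjusted p of 0.29 and 0.175). RALF-like 19, known from pollen tubes in Arabidopsis, was listed at 0 in every library in all 3 genes of that description. LOC125469258 had values above 0 in library 2 of each group alone, 3.28 FPKM in B-deficient tips and 1.43 FPKM in control tips. LOC103955011 entered the class by its description, but its listed domain is that of a mitochondrial pyruvate carrier. It averaged 24.1 ± 4.93 FPKM in B-deficient tips and 33.8 ± 4.78 FPKM in control tips (SD, n = 3 each; limma adjusted p = 0.0639).

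The deposited protein domains, which the choice of genes did not use, divide the kinases further. Of the wall-associated kinases, 20 carry both an outer domain and a kinase, and 13 carry a kinase alone. The outer part of 16 of the 20 holds the pectin-binding type of domain typical of wall-associated kinases, while the 4 genes described as wall-associated receptor kinase-like 14 list an EGF-like domain alone. These 4 genes summed to 86.2 ± 2.2 FPKM in B-deficient tips and 102 ± 1.7 FPKM in control tips, and the other 16 to 94.5 ± 0.8 FPKM in B-deficient tips and 95.2 ± 1.5 FPKM in control tips (SD, n = 3 each). Together, the genes with both parts summed to 181 ± 2.33 FPKM in B-deficient tips and 197 ± 3.19 FPKM in control tips, and those with a kinase alone to 83.4 ± 7.13 FPKM in B-deficient tips and 50.2 ± 5.78 FPKM in control tips (SD, n = 3 each). Of 9 genes tested in each set, 1 with both parts (11.1%) and 4 with a kinase alone (44.4%) were called, against 8.19% of all genes tested. The median log2 fold changes of the sets were -0.18 and 1.11. Of the 9 with a kinase alone, 5 are loci sharing the kinase-like 4 database entry, and these hold 3 of the 4 calls. The median of 1.11 is the value of LOC103965499, which averaged 0.360 FPKM in control tips and passed the minimum level through B deficiency alone. Of the FERONIA-type kinases, 21 carry both the malectin-like domain and a kinase, and 17 a kinase alone. Those with both parts summed to 233 ± 28.4 FPKM in B-deficient tips and 179 ± 3.09 FPKM in control tips, and those with a kinase alone to 67.3 ± 13.3 FPKM in B-deficient tips and 41.7 ± 1.82 FPKM in control tips (SD, n = 3 each). Here 1 of 16 with both parts (6.25%) and 3 of 10 with a kinase alone (30%) were called, with medians of 0.24 and 0.63. The difference between genes with both parts and those with a kinase alone was not tested. Whether the genes listed without an outer domain are complete gene models was not tested.

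**Figure D5:**
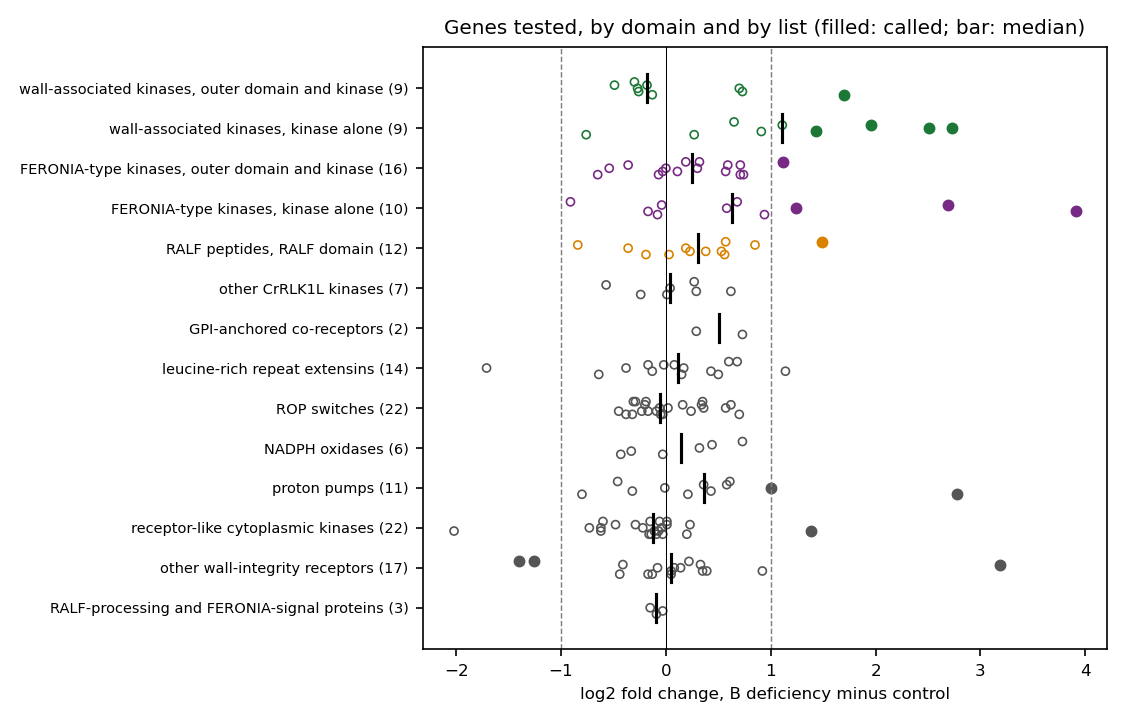
Log2 fold change (B deficiency minus control) of the tested genes, grouped by deposited domains for the 3 classes and by list for the genes that act with them, with a point per gene, filled where called, a bar at the median and dashed lines at the minimum fold change. The gene listed at 0 in the control is not drawn. The wall-associated kinases with a kinase alone have a median of 1.11, and those with both domains a median of -0.18. Of the 9 with a kinase alone, 5 share 1 database entry.

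The genes that act beside these receptors and peptides were taken from lists matched on the same descriptions. Of the 104 tested over 9 lists, 6 were called (5.77%), 4 higher and 2 lower, a share near the 8.19% of all genes tested. LORELEI-type proteins, the GPI-anchored partners of FERONIA in RALF binding, had 2 genes tested. Both were higher at an adjusted p under 0.05, as were 12% of all genes tested, and neither was called. LOC103967575 had 171, 164.9 and 155.63 FPKM in B-deficient tips and 96.0, 99.6 and 99.5 FPKM in control tips (log2 fold change 0.73, limma adjusted p = 0.000126). Of 14 leucine-rich repeat extensins tested, wall proteins that bind RALF peptides, none was called by limma. At an adjusted p under 0.05, 3 extensins were higher and 1 lower, against 12% and 15.4% of all genes tested. At an unadjusted one, 4 extensins were higher and 3 lower, against 16.3% and 23.2% of all genes tested. The most expressed, LOC103929433, averaged 88.9 ± 9.39 FPKM in B-deficient tips and 62.7 ± 1.57 FPKM in control tips (SD, n = 3 each; log2 fold change 0.50, limma adjusted p = 0.00375). The other kinases of the FERONIA family, whose descriptions here give Arabidopsis locus names alone, had none called of 7 tested. Of these kinases, 1 was higher and 1 lower at an adjusted p under 0.05 (limma), and no more at an unadjusted one. Their most expressed gene, LOC103935094, averaged 59.0 ± 5.9 FPKM in B-deficient tips and 58.6 ± 1.47 FPKM in control tips (SD, n = 3 each).

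Downstream of FERONIA, ROP switches (small GTPases and their activating factors) and NADPH oxidases carry the signal to oxygen radicals in Arabidopsis. None of the 22 ROP switch genes and none of the 6 NADPH oxidases tested was called by limma. At an adjusted p under 0.05, 1 gene was higher and 1 lower in each list, against 12% and 15.4% of all genes tested. At an unadjusted p under 0.05, 6 ROP switch genes were higher and 4 lower, and 2 NADPH oxidases were higher and 1 lower, against 16.3% higher and 23.2% lower over all genes tested. The most expressed of each were LOC103946643, which averaged 89.8 FPKM in B-deficient tips and 112 FPKM in control tips (log2 fold change -0.32, limma adjusted p = 0.00619), and LOC103941851, which averaged 45.6 FPKM in B-deficient tips and 46.5 FPKM in control tips. Proton pumps of the plasma membrane acidify the wall and are inhibited by RALF signalling in Arabidopsis. Of these pumps 2 of 11 were called (18.2%), both higher, against 8.19% of all genes tested. At an adjusted p under 0.05, 5 were higher and 1 was lower, against 12% and 15.4% of all genes tested. The lower pump, LOC125480830, averaged 75.1 FPKM in B-deficient tips and 92.9 FPKM in control tips (log2 fold change -0.32, limma adjusted p = 0.0477). LOC103942434 averaged 1.32 ± 0.421 FPKM in B-deficient tips and 0.107 ± 0.0586 FPKM in control tips (SD, n = 3 each; log2 fold change 2.78, limma adjusted p = 0.00372). LOC125475537 averaged 5.23 ± 1.06 FPKM in B-deficient tips and 2.60 ± 0.797 FPKM in control tips (SD, n = 3 each; log2 fold change 1.00, limma adjusted p = 0.0186), at the minimum fold change. It was not called without B deficiency library 1 (adjusted p = 0.0517), without B deficiency library 2 (log2 fold change 0.85) or without control libraries 2 and 3 (adjusted p of 0.0727 and 0.0721 at 0.90 and 0.88). The most expressed pump, LOC103958768, averaged 99.4 FPKM in B-deficient tips and 85.8 FPKM in control tips (log2 fold change 0.21, limma adjusted p = 0.0216).

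Of 22 receptor-like cytoplasmic kinases tested, 1 was higher and 3 were lower at an adjusted p under 0.05 (limma), against 12% and 15.4% of all genes. At an unadjusted p under 0.05, 1 was higher and 6 were lower, against 16.3% and 23.2% of all genes tested. The median log2 fold change of the list was -0.12. Only 1 gene was called (4.55%), as higher. This gene, LOC103955586, averaged 1.92 ± 0.834 FPKM in B-deficient tips and 0.680 ± 0.342 FPKM in control tips (SD, n = 3 each; log2 fold change 1.38, limma adjusted p = 0.0474), but without B deficiency libraries 1 and 3 and control libraries 1 and 3 its adjusted p was 0.138, 0.113, 0.135 and 0.142, at log2 fold changes of 1.07, 1.37, 1.28 and 1.14. Their most expressed gene, LOC103929928, averaged 98.5 FPKM in B-deficient tips and 108 FPKM in control tips. Other receptors linked to wall integrity, of the MIK and FEI types, had 3 of 17 called (17.6%), 1 higher and 2 lower. Of all genes tested, 8.19% were called. LOC103954845 averaged 18.4 ± 4.08 FPKM in B-deficient tips and 2.02 ± 0.903 FPKM in control tips (SD, n = 3 each; log2 fold change 3.19, limma adjusted p = 0.000415). LOC103940963 averaged 5.22 ± 1.47 FPKM in B-deficient tips and 14.4 ± 6.64 FPKM in control tips (SD, n = 3 each; log2 fold change -1.40, limma adjusted p = 0.0181), with -1.18 and an adjusted p of 0.0574 without B deficiency library 3. The other fall was in LOC103936426, which had 0.61, 0.59 and 0.3 FPKM in B-deficient tips and 1.32, 1.46 and 1.12 FPKM in control tips (log2 fold change -1.26, limma adjusted p = 0.0259). It was not called without B deficiency library 3 (log2 fold change -0.99) or without control library 1, 2 or 3 (adjusted p of 0.082, 0.0935 and 0.0601 at -1.25, -1.18 and -1.36). LOC103961330, the most expressed, averaged 22.8 FPKM in B-deficient tips and 29.0 FPKM in control tips. The 3 genes for the protease that cuts RALF precursors and for a protein that acts downstream of FERONIA had none called and none at an unadjusted p under 0.05 (limma), with a median log2 fold change of -0.09, and the most expressed, LOC103930525, averaged 109 FPKM in B-deficient tips and 115 FPKM in control tips.

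Below the minimum level lay 15 wall-associated kinases, 8 FERONIA-type kinases and 1 RALF peptide, and a few fragments decide values there. When limma was run with no minimum level, 2 of these 24 genes were called, both FERONIA-type and both higher. LOC103955725 averaged 0.567 FPKM in B-deficient tips and 0.120 FPKM in control tips (log2 fold change 1.54, adjusted p = 0.0162), and LOC103968141 averaged 0.183 FPKM in B-deficient tips and was listed at 0 in the control (adjusted p = 0.0496).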

How the data were processed

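RNA was sequenced from root tips of 3 B deficiency and 3 control samples, grouped by their labels. The authors' methods name STAR, the genome of P. bretschneideri and RSEM, while the submitters' processing notes list HISAT2, Cufflinks 2.2.1, DESeq2 and mouse builds. The deposited values are FPKM, rounded to 2 decimals, without counts or depth, so counting intervals are not given. Another 4 deposited columns hold group means, a ratio and its log2, which were not used.

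Genes were assigned to a class by their description. limma (version 3.58.1, R 4.3.3, lmFit and eBayes with a trend) was applied to log2(FPKM + 0.1), with thresholds from the paper. DESeq2, the test of the paper, was not run because it needs counts. An exact permutation test of 1 gene cannot go below p = 0.1 with 3 libraries against 3. The procedure was tested on simulated data. There the changed genes lay above the minimum level and the minimum fold change, and the spread was fixed. That simulation therefore does not cover calls near either minimum, or a library that stands apart. Summaries were made with Python 3.11.15 and pandas 2.3.3. Members and lists were chosen with earlier results of these data known. Genes were named by a rule: called members (up to 10 per class and direction), the 3 most expressed members per class, members at 0 in 1 group alone and, per companion list, the largest called rise and fall and the most expressed gene. Genes named beyond it were chosen after their values were seen. A pollen marker list was led by genes at high levels in these root tips, with its pollen allergen gene at 0, and was not used as a marker. Alternatives were other pseudocounts, minimum levels, scalings and variance models, library weights, a replicate block, no minimum fold change, domain-backed members, members with a mean of at least 0.5 FPKM in each group (chosen after seeing the data) and each library left out.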

Additional observations from a re-analysis of the deposited data

How the results depend on the processing

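All 12 calls were of higher expression in B deficiency, and no gene of the 3 classes was called lower under any alternative at the minimum fold change, except LOC125470062 without B deficiency library 1. Without the minimum fold change, which admits more genes by construction, 11 wall-associated kinases, 10 FERONIA-type kinases, 5 RALF peptides and 26 members in all passed, and 7693 of all genes. With only members whose listed domains name the class, which leaves fewer members, 4 members in all were called. Among wall-associated kinases this was 1 of 9 tested with both parts (11.1%) and none of 2 with an outer domain alone. It was 1 of 16 FERONIA-type kinases (6.25%) and 2 of 13 RALF peptides (15.4%), against 8.19% of all genes tested. The other calls were of genes listed without a domain of their class. With a minimum mean of 1 FPKM, or a mean of at least 0.5 FPKM in each group, 1 RALF peptide was called, since LOC125477437 then leaves the test. Leaving out each library gave 4 to 7 wall-associated kinases, 2 to 4 FERONIA-type kinases, 2 to 3 RALF peptides, 9 to 11 members in all and 1889 to 2545 of all genes. The cause of these changes was not tested. With log2(FPKM + 1), 9 members were called where 5.55% of all genes were, and LOC103962755, LOC125470959 and novel2936 had log2 fold changes of 0.80, 0.90 and 0.85. With log2(FPKM + 0.01), 11 members were called, without LOC125470959 (3.86, adjusted p = 0.0605). Of genes near no difference, LOC103935094 changed sign with library weights (-0.06) and ranged from -0.07 to 0.07 with a library left out, and LOC103941851 changed sign with median-of-ratios scaling (0.02) and ranged from -0.07 to 0.00292. LOC103930525 ranged from -0.14 to 0.00143 and LOC103960197 from -0.00122 to 0.17 with a library left out. Libraries share replicate numbers between the groups, but the deviations of same-numbered libraries correlated at 0.04, 0.035 and -0.005, and B deficiency libraries 1 and 2 correlated best with their own number but library 3 with control library 2, so the numbers were not taken to pair the samples. With the replicate number as a block, 5 wall-associated kinases, 4 FERONIA-type kinases, 2 RALF peptides, 11 members in all and 2176 of all genes were called, without novel2936 (adjusted p = 0.0528) and, among companion genes, without LOC103955586 (0.0904). FPKM without counts leaves the precision of low genes unknown.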
